A study of Mus musculus with 24 samples.

Results

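The genes described here are 10 negative regulators of transforming growth factor beta (TGF-beta), Nodal and activin signalling: Smad7, Smad6, Ski, Skil, Tgif1, Tgif2, Bambi, Pmepa1, Smurf1 and Smurf2. They were chosen by name among 21896 protein-coding genes of the gene table, and each was described through the ATAC-seq intervals that overlap its gene body extended by 20 kb on each side. That window held 260 of 299780 intervals in cells grown without inhibitor and 247 of 272268 intervals in inhibitor-treated cells. All libraries came from the mouse embryonic stem cell line E14, grown on gelatin-coated plates with serum and LIF (leukemia inhibitory factor). There were 3 lines, the unmodified one (WT) and 2 that lack Smad2 (knockout, KO), labelled Smad2_KO1 and Smad2_KO2; their alleles, and whether each is 1 clone, are not given in the sources used here. Each line was sampled untreated (Ctrl) and after 12 hours with 200 nM INK128, an inhibitor of the kinase mTOR (Paused). Each of the 6 groups had 4 libraries of 50000 cells, 24 in all, and the labels do not say whether libraries of 1 group came from separate cultures, so the p-values measure the spread between libraries. ATAC-seq marks open chromatin through insertions of the Tn5 transposase, and it measures accessibility, not transcription or protein.

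Nodal, activin and TGF-beta bind receptor kinases that phosphorylate Smad2 and Smad3, which join Smad4 and act on chromatin with partner factors such as Foxh1. The pathway switches on several of its own brakes. Inhibitory Smads (Smad7, Smad6) block the receptors, corepressors (Ski, Skil, Tgif1, Tgif2) act on Smad complexes in the nucleus, a decoy receptor (Bambi) and a membrane adaptor (Pmepa1) act near the receptors, and ubiquitin ligases (Smurf1, Smurf2) mark receptors and Smads for degradation. In embryonic stem cells the branch through Smad2 is active, and Lefty1, Lefty2, Smad7 and Skil are widely used as its readouts.

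The sequences that could be shown are stretches at annotated starts, credited to RefSeq (GRCm38.p6, the build the submitters name as mm10). Smad boxes were searched there alone. Among the genes printed below, the searched window overlapped a deposited interval at Smurf2 only. The table held entries for Smad6, Ski, Tgif1, Tgif2, Smurf1 and Smurf2. Each window of 300 bases was searched on both strands for the Smad box core CAGAC and for the palindrome GTCTAGAC, neither of which contains the other. The core was found in 49.6% of 32817 promoters of the same length and the palindrome in 70 of them (0.213%). Smurf1 (chr5:144965900-144966080, minus strand), Smurf2 (chr11:106920748-106920965, minus strand) and Ski (chr4:155222536-155222785, minus strand) are printed up to the gene body, with the core in capitals on either strand. The 30 bases at the start of Smad6 (chr9:64022045-64022074, minus strand) have the palindrome in capitals.
Smurf1: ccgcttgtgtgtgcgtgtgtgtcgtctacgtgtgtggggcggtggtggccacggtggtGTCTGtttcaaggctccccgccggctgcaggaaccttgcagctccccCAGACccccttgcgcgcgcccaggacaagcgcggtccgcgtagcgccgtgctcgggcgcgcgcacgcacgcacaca
Smurf2: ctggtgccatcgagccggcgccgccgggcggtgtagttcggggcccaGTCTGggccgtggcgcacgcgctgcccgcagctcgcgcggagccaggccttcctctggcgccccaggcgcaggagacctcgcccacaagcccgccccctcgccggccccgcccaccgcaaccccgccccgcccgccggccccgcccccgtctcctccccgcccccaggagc
Ski: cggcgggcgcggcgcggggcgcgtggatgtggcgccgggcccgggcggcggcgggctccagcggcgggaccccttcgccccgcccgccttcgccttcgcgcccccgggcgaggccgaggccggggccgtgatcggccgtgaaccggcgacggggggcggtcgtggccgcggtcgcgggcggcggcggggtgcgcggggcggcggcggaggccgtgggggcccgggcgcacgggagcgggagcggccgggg
Smad6: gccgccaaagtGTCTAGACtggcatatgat
The palindrome of Smad6 begins 4 bases before the annotated start and runs across it, and no deposited interval lay there: the nearest was 3385 bases away in Ctrl. The window of Ski held no core, while those of Smurf1 and Smurf2 held 2 each, of which 2 and 1 fall in the printed stretches. Tgif1 had 5 windows, with 0 to 2 cores each, and the windows of Smad6 and Tgif2 held no core. A match describes letters only and shows no binding.

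The deposited values are normalized signal: the reads of an interval were scaled by a factor that is the same for every interval of a library. A value was compared between lines on the log2(value + 1) scale, where a change of 1 is about a doubling and the change of weak intervals is understated. An interval was tested when at least 4 libraries reached a value of 10, which 248 member intervals did in Ctrl and 244 in Paused. It was called when limma gave an adjusted p under 0.05 for each knockout line against WT with the same sign, with p-values adjusted by the Benjamini-Hochberg method over all tested intervals of the table. Recovered reads in intervals ran from 11772458 to 16525762 per library in Ctrl and from 11456986 to 20007829 in Paused. At Smad2 itself none of 13 tested intervals was called in Ctrl and 2 of 16 were called higher in Paused; accessibility does not test whether the gene product is lost. The strongest interval at each of 7 embryonic stem cell genes had a median level of 383 in Ctrl, ranging from 44.9 at Pou5f1 to 515 at Zfp42, and 458 in Paused. Markers of primitive endoderm, trophoblast, mesendoderm and fibroblasts were accessible too, none being at 0, with medians from 92.2 to 186 in Ctrl. The summed level of 4 fibroblast markers was 449 in WT against 385 and 392 in the knockout lines in Ctrl, and 634 against 524 and 524 in Paused, with 1 and 2 of the 4 called, while Col1a2 and Twist2 had higher means in the knockout lines in Paused. For 4 mesendoderm markers it was 445 against 399 and 392, and 488 against 431 and 439, with 1 of the 4 called in each table. For 5 trophoblast markers it was 944 against 955 and 907, and 1335 against 1197 and 1194, and for 5 primitive endoderm markers 878 against 828 and 827, and 1059 against 980 and 974, with none called. For the 7 stem cell genes it was 2185 against 2304 and 2287 in Ctrl, and 2678 against 2581 and 2561 in Paused. The 1 call among them, Klf4 in Paused, was higher in the knockout lines (68.9 in WT against 101 and 88.9). The part of these in the results below was not tested, and in bulk libraries fewer cells of a type and less openness per cell cannot be told apart. In Paused, the libraries Smad2_KO1 replicate 2 and Smad2_KO2 replicate 2 differed by no more than sampling noise (chi-square per degree of freedom 1.001), and whether they are 1 library cannot be told from the files. If they are, each knockout line has fewer than 4 libraries of its own, so counts are also given with the KO libraries numbered 2 left out. The other same-numbered KO pairs in Paused had 1.026, 1.027 and 1.074, below every other pair of KO libraries in that table. In Ctrl the KO pairs numbered 4 and 1 had 1.016 and 1.072, the lowest of all pairs there. Those numbered 2 and 3 had 1.211 and 1.270. Leaving out the KO libraries numbered 2 does not remove the close Ctrl pairs. In both tables a call in both lines is therefore not 2 independent results.

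Loss of Smad2 went with lower accessibility at a few elements of Smad7 and Ski, while most of the 10 genes' intervals did not pass the test. In Ctrl, 13 of 248 tested member intervals were called in both knockout lines (5.24%), 4 higher and 9 lower, beside 7.15% of all tested intervals (3.95% higher and 3.2% lower). In Paused, 25 of 244 were called (10.2%), 7 higher and 18 lower, beside 13.9% of all (9.01% higher and 4.92% lower). In this fit the members were not called more often than other intervals, and in both tables more of their calls were lower than higher. Of all tested members, 18 in Ctrl (7.26%) and 23 in Paused (9.43%) had KO values that did not overlap those of WT, beside 7.48% and 11.5% of all tested intervals. Among the calls, 4 had fewer than 4 libraries of 1 genotype at the value of 10 that the filter asks for: those of Pmepa1 and Tgif2 in Ctrl and of Smad6 at chr9:63937113-63937313 in Paused were low in WT, and that of Smurf2 at chr11:106940641-106940841 in Paused was low in the KO libraries. They entered the test through the other genotype. Calls lay at 9 genes in Ctrl (all but Bambi) and at 8 in Paused (all but Tgif1 and Pmepa1). Over the members the median log2 change was -0.01 in Ctrl and 0.02 in Paused, beside 0.08 and 0.12 over all tested intervals. Without the KO libraries numbered 2, 6 intervals were called in Ctrl (2.42% of tested, beside 4.30% of all) and 12 in Paused (4.92% beside 7.03%). For each gene and table, the start or strongest interval and up to 3 called intervals are described by a set rule; at Ski in Paused those beginning at 155135999, 155178344, 155163433, 155173512 and 155235382, and at Smurf1 in Paused that at 144898537, fall outside it and were chosen after their values were seen. The count in Ctrl fell to 8 without Smad2_KO1 replicate 1 (3.23%, beside 5.06% of all). The Paused count fell to 16 without Smad2_KO1 replicate 2 or without WT replicate 1 (6.56%, beside 9.74% and 11.3% of all). The split of higher against lower calls moved with the scaling, to 2 and 17 in Ctrl and 6 and 25 in Paused under DESeq2 size factors. Over all tested intervals it moved the same way. There the higher calls went from 55.2% to 37.4% of all calls in Ctrl and from 64.7% to 41.0% in Paused. In the authors' deposited tables, which set all 8 KO libraries against WT, 32 member intervals had a false discovery rate under 0.05 in Ctrl and 41 in Paused, beside 12.2% and 21.6% of all.

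**Figure D1:**
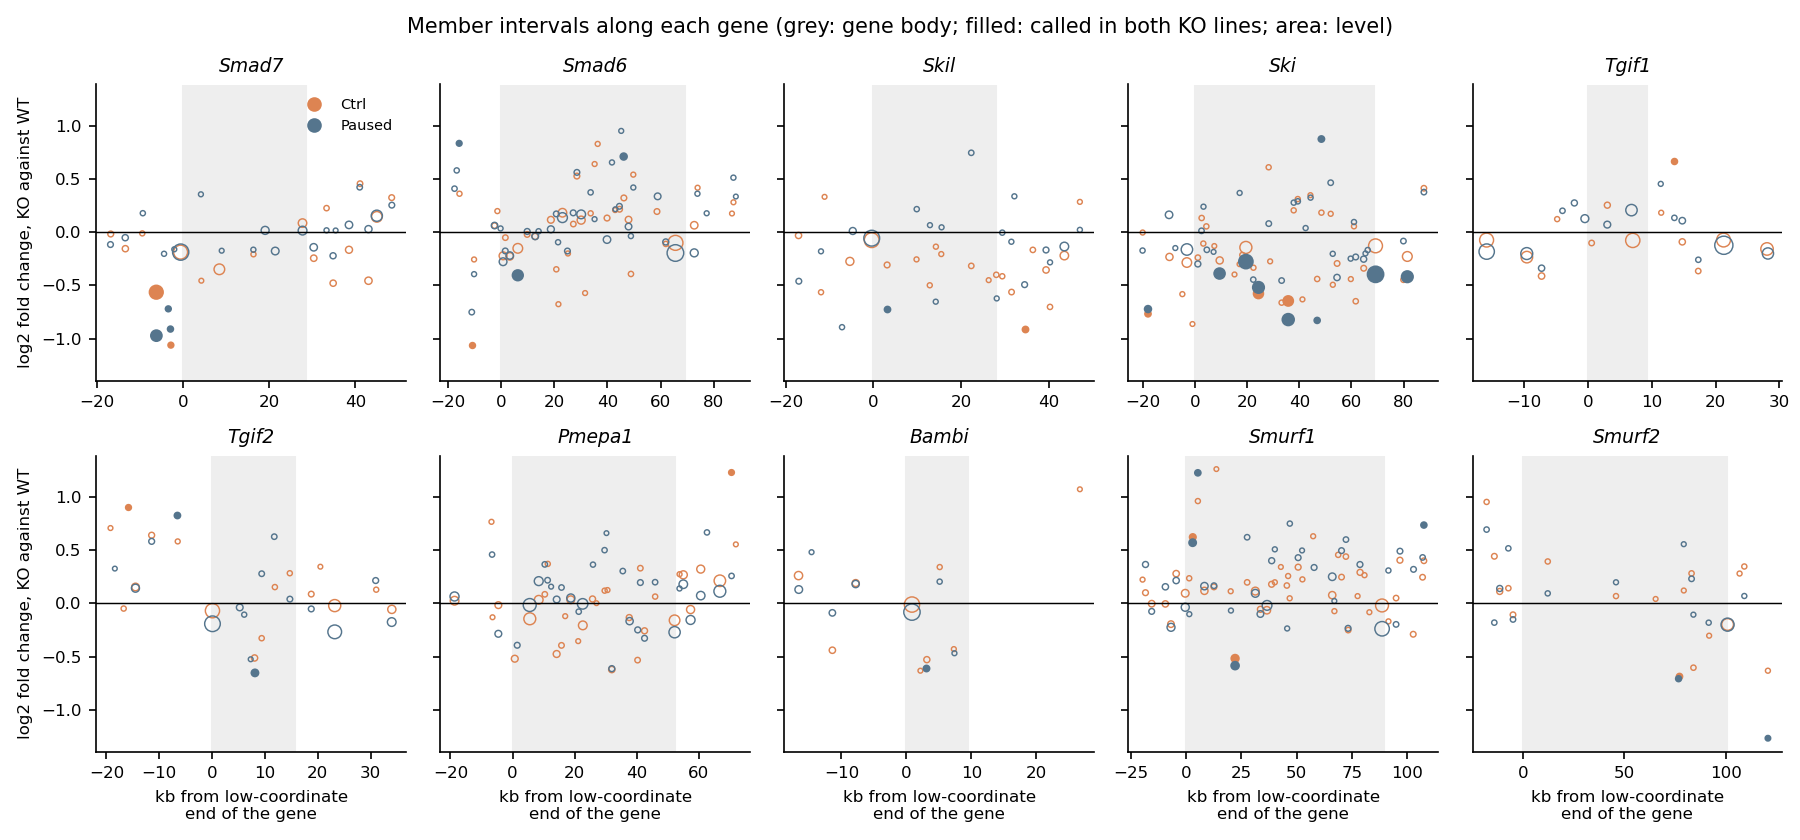
Mean log2 fold change of the 2 knockout lines against WT for each tested member interval (y axis) by its distance in kb from the low-coordinate end of the gene (x axis), with the gene body in grey. Filled points are called in both knockout lines, orange for Ctrl and blue for Paused, and the area of a point grows with the mean signal; the filled points of Smad7 lie within 6.2 kb outside the gene and those of Ski lie in and on both sides of the gene body.

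Smad7, the inhibitory Smad that recruits Smurf ligases to the receptor, had the element with the lowest p-values of all members in both tables, when an interval is ranked by the larger of its 2 values. An element 6204 bases outside the low-coordinate end of the gene (chr18:75360961-75361161) had values of 334, 366, 402 and 371 in the WT libraries in Ctrl. It had 227, 247, 261 and 285 in Smad2_KO1 and 232, 262, 206 and 278 in Smad2_KO2. All 8 KO libraries lay below all 4 WT libraries. The log2 change was -0.53 ± 0.10 (SE) in Smad2_KO1 and -0.60 ± 0.10 in Smad2_KO2, with limma adjusted p = 0.000175 and 3.40e-05. In Paused the same element (chr18:75360986-75361186) had 274, 225, 278 and 274 in WT. Smad2_KO1 had 129, 107, 130 and 167, and Smad2_KO2 had 112, 124, 130 and 183. No KO library reached the lowest WT library, and the change was -0.99 ± 0.12 and -0.95 ± 0.12 (limma adjusted p = 6.94e-07 and 1.36e-06). Whether the loss is larger in Paused than in Ctrl was not tested, since the tables hold different intervals and were scaled separately.

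Between this element and Smad7 lay weaker intervals that were also lower. In Ctrl, chr18:75364356-75364556 averaged 29.6 ± 8.15 (SD, n = 4) in WT against 14.9 ± 2.71 and 12.3 ± 3.20 in the knockout lines, and its call was lost without WT replicate 3 (limma adjusted p = 0.0646). Its counterpart in Paused (chr18:75364258-75364458) averaged 32.1 ± 3.37, 15.9 ± 6.33 and 18.5 ± 4.76, and lost its call without Smad2_KO2 replicate 1 (limma adjusted p = 0.0969) or WT replicate 1 (0.0569). Another weak interval (chr18:75363758-75363958) was called in Paused alone at 26.9 ± 7.46 in WT against 15.9 ± 4.12 and 15.8 ± 4.83, and kept its call in only 5 of 12 fits that left out 1 library. The strongest interval, 554 bases outside the gene, did not pass the test in Ctrl, with changes of -0.16 and -0.21. It averaged 356 ± 32.5 in WT, 320 ± 43.3 in Smad2_KO1 and 306 ± 15.0 in Smad2_KO2. In Paused it averaged 493 ± 40.1, 433 ± 2.57 and 432 ± 31.4, with changes of -0.18 and -0.19 (limma adjusted p = 0.0952 and 0.0791). Over the whole window 2 of 18 tested intervals were called in Ctrl and 3 of 24 in Paused, all lower.

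Smad6, the inhibitory Smad that acts mainly on the bone morphogenetic protein branch, moved in both directions. An intragenic interval of high level (chr9:63959193-63959393) had 191, 164, 213 and 211 in the Paused WT libraries. It had 137, 131, 149 and 153 in Smad2_KO1 and 133, 160, 157 and 151 in Smad2_KO2, all below WT. The log2 changes were -0.44 ± 0.11 and -0.37 ± 0.11 (limma adjusted p = 0.00312 and 0.0127), and the call was lost without Smad2_KO2 replicate 1 (0.0622) and with a loess offset along the level (0.0728). A weaker intragenic interval (chr9:63999072-63999272) rose in Paused from 30.6 ± 1.96 (SD, n = 4) in WT to 54.8 ± 8.18 and 47.7 ± 7.76, without overlap; it lost its call without Smad2_KO2 replicate 2 (limma adjusted p = 0.0533). Further out, chr9:63937113-63937313 averaged 11.4 ± 4.98 in WT against 20.6 ± 2.41 and 19.3 ± 3.14 in Paused and was called in 5 of 12 other settings. In Ctrl the only call, chr9:63941848-63942048, rested on WT libraries that ranged from 17.9 to 65.8. It averaged 33.4 ± 22.5 in WT against 12.6 ± 3.49 and 14.9 ± 3.93, and without WT replicate 4 the limma adjusted p was 0.251. The strongest interval of Smad6 (chr9:64018574-64018774, intragenic) averaged 398 ± 23.0 in Ctrl in WT, against 378 ± 19.7 and 366 ± 26.5 in the knockout lines, and was not called in either table.

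Ski, a corepressor that binds Smad complexes and recruits histone deacetylases, held the largest number of calls: 3 of 39 tested intervals in Ctrl (7.69%) and 9 of 37 in Paused (24.3%). In Ctrl all 3 were lower, and in Paused 8 of the 9. The clearest was an intragenic element (chr4:155189745-155189945) with 171, 192, 188 and 193 in the Ctrl WT libraries, 102, 104, 145 and 129 in Smad2_KO1, and 100, 105, 133 and 140 in Smad2_KO2. The groups did not overlap, and the changes were -0.64 ± 0.12 and -0.65 ± 0.12 (limma adjusted p = 0.000296 and 0.000269). In Paused (chr4:155189743-155189943) WT had 357, 286, 296 and 240. Smad2_KO1 had 172, 151, 183 and 175 and Smad2_KO2 had 139, 151, 166 and 187, again all below WT. The changes were -0.78 ± 0.11 and -0.86 ± 0.11 (limma adjusted p = 4.01e-06 and 7.10e-07).

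A second intragenic element of Ski was lower in both tables. In Ctrl (chr4:155178336-155178536) it averaged 170 ± 26.2 (SD, n = 4) in WT against 113 ± 18.6 and 115 ± 13.3 in the knockout lines, and in Paused (chr4:155178344-155178544) 243 ± 16.0, 170 ± 19.7 and 171 ± 25.9. An interval 17876 bases outside the gene, in the body of Morn1 (chr4:155135999-155136199), averaged 37.6 ± 4.55, 22.6 ± 8.41 and 22.0 ± 5.43 in Ctrl and 59.4 ± 9.40, 36.3 ± 6.98 and 35.0 ± 4.61 in Paused. Its Ctrl call was lost without Smad2_KO1 replicate 1 (limma adjusted p = 0.0585), Smad2_KO1 replicate 2 (0.0857) or Smad2_KO2 replicate 4 (0.0746). The Paused table added the interval nearest the start of Ski (chr4:155223210-155223410, 675 bases outside the gene and upstream of the printed stretch). Its values were 621, 416, 421 and 573 in WT, 435, 344, 361 and 386 in Smad2_KO1, and 389, 348, 360 and 424 in Smad2_KO2. The WT libraries were spread widely and the lower of them overlapped the KO libraries. The change was -0.39 ± 0.10 and -0.40 ± 0.10 (limma adjusted p = 0.00450 and 0.00423), and it kept its call in each of 12 fits with 1 library left out. In Ctrl its counterpart did not pass, with 345 ± 80.7 in WT, 311 ± 66.6 and 313 ± 8.67.

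The remaining Paused calls of Ski were an intragenic rise and 4 lower intervals. The rise, at chr4:155202452-155202652, went from 19.2 ± 4.25 (SD, n = 4) in WT to 33.1 ± 6.31 in Smad2_KO1 and 38.9 ± 4.87 in Smad2_KO2, with log2 changes of 0.76 and 0.99. A neighbour (chr4:155200833-155201033) fell from 35.6 ± 8.20 to 21.0 ± 2.30 and 18.0 ± 4.78; without Smad2_KO1 replicate 4, WT replicate 1 or WT replicate 2 its limma adjusted p was 0.0609, 0.0550 and 0.0680. The other lower intervals began at 155163433, 155173512 and 155235382 on chromosome 4. Their log2 changes ran from -0.26 to -0.49, and none of them was called without the KO libraries numbered 2.

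Skil (SnoN), the paralog of Ski and itself a Smad-induced corepressor, had 1 call per table, at different places. In Ctrl an interval 6542 bases outside the high-coordinate end (chr3:31129465-31129665) had 38.5, 42.1, 50.4 and 39.9 in WT. It had 22.2, 25.7, 18.7 and 27.7 in Smad2_KO1 and 25.1, 17.3, 17.0 and 26.2 in Smad2_KO2, all below WT. The changes were -0.84 ± 0.20 and -0.98 ± 0.20 (limma adjusted p = 0.00406 and 0.000768). In Paused an intragenic interval (chr3:31098072-31098272) averaged 37.9 ± 6.51 (SD, n = 4) in WT against 22.0 ± 5.32 and 23.4 ± 4.52 in the knockout lines. Its call was lost without Smad2_KO2 replicate 4 (limma adjusted p = 0.0729), WT replicate 1 (0.0526) or WT replicate 4 (0.0649). The strongest interval of Skil, 299 bases outside the low-coordinate end, had changes of -0.07 and -0.08 in Ctrl and was not called. In Ctrl, 19 of 21 tested Skil intervals had a mean change below 0, with a median of -0.31. In Paused 13 of 20 did, with a median of -0.11. The medians over all tested intervals were 0.08 and 0.12. Intervals of 1 gene are not independent, so these counts are no test.

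Tgif1 and Tgif2, homeodomain corepressors that bind Smad2 complexes, showed few calls. At Tgif1 the only call was a weak interval 4132 bases outside the gene in Ctrl (chr17:70857664-70857864), at 16.4 ± 3.47 (SD, n = 4) in WT against 26.3 ± 2.70 in Smad2_KO1 and 26.3 ± 3.94 in Smad2_KO2. All KO libraries lay above WT, but the call held in only 4 of 12 fits with a library left out and in 6 of 12 other settings. The start interval of Tgif1 in Ctrl (chr17:70851134-70851334) averaged 355 ± 25.5, 336 ± 33.7 and 337 ± 19.3 and did not pass. At Tgif2 an intragenic interval fell in Paused (chr2:156847825-156848025). Its values were 65.9, 70.8, 76.6 and 67.5 in WT, 40.9, 37.2, 57.9 and 43.7 in Smad2_KO1, and 38.0, 41.3, 58.4 and 41.6 in Smad2_KO2, without overlap. The changes were -0.65 ± 0.16 in each knockout line (limma adjusted p = 0.00380 and 0.00371). In the other direction, chr2:156833157-156833357, 6460 bases outside Tgif2 and in the body of LOC115486128, rose from 18.8 ± 5.87 to 30.2 ± 2.36 and 36.2 ± 3.30, and lost its call without WT replicate 1 (limma adjusted p = 0.0837). A weak Ctrl interval (chr2:156823784-156823984) averaged 11.5 ± 3.70 in WT against 24.0 ± 7.05 and 20.0 ± 1.83, and held its call in 7 of 12 fits with a library left out. The start of Tgif2 was not called in either table.

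Bambi, a decoy receptor without a kinase domain, had no call in Ctrl and 1 in Paused. The intragenic interval chr18:3509993-3510193 had 43.2, 37.6, 38.8 and 38.4 in WT, 29.5, 25.4, 32.8 and 19.9 in Smad2_KO1, and 29.0, 20.3, 23.6 and 26.3 in Smad2_KO2. All KO libraries were below WT, with changes of -0.56 ± 0.19 and -0.66 ± 0.19 (limma adjusted p = 0.0362 and 0.0136), and the call held in 6 of 12 fits with a library left out. Its strongest interval (chr18:3507763-3507963, intragenic) averaged 400 ± 45.8 in WT in Ctrl against 386 ± 50.0 and 407 ± 21.5, and did not pass. Pmepa1, a membrane adaptor that competes for Smad2 and Smad3, had no call in Paused. In Ctrl a weak interval 18090 bases outside its high-coordinate end (chr2:173294821-173295021) had 7.48, 9.85, 6.57 and 8.63 in WT. It had 23.1, 26.7, 20.6 and 17.3 in Smad2_KO1 and 18.0, 16.4, 18.1 and 24.2 in Smad2_KO2, all above WT. The log2 changes of 1.33 ± 0.26 and 1.14 ± 0.26 (limma adjusted p = 0.000393 and 0.00225) kept their call in all 12 other settings and in all 12 fits with a library left out. No WT library reached the filter value of 10, so the interval was tested only through the KO libraries where it is high. In Paused the matched interval did not pass. The strongest Pmepa1 interval (chr2:173229910-173230110) averaged 245 ± 15.9 in WT, 213 ± 11.0 in Smad2_KO1 and 229 ± 18.7 in Smad2_KO2 in Ctrl, also short of the threshold.

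Smurf1, a ubiquitin ligase for receptors and for the Smads of the bone morphogenetic protein branch, had rises and falls inside its long gene body. The firmest was an intragenic rise in Paused (chr5:144881693-144881893). WT had 11.9, 12.9, 17.3 and 11.9, Smad2_KO1 had 27.6, 41.7, 33.7 and 30.8, and Smad2_KO2 had 27.0, 45.0, 31.4 and 27.4. The groups did not overlap, and the log2 changes were 1.25 ± 0.22 in Smad2_KO1 and 1.2 ± 0.22 in Smad2_KO2 (limma adjusted p = 8.42e-05 and 0.000147). About 2.4 kb away a second interval was higher in both tables. In Ctrl (chr5:144879404-144879604) it averaged 25.9 ± 1.59 (SD, n = 4) in WT against 39.5 ± 5.85 and 42.2 ± 7.06 in the knockout lines, and the call held in 8 of 12 fits with a library left out. In Paused (chr5:144879342-144879542) it averaged 40.1 ± 3.17, 61.3 ± 8.82 and 59.7 ± 10.9, and lost its call without Smad2_KO2 replicate 2 (limma adjusted p = 0.0688). One more was lower in both tables, on WT libraries that disagreed among themselves: chr5:144898532-144898732 ranged from 60.0 to 115 in WT and from 46.4 to 67.5 in the KO libraries in Ctrl, and without WT replicate 4 the limma adjusted p was 0.239. In Paused, chr5:144898537-144898737 averaged 98.0 ± 39.3 in WT against 64.1 ± 7.89 and 57.9 ± 5.10. A Paused rise 18002 bases outside Smurf1, in the body of Kpna7 (chr5:144983901-144984101), went from 16.8 ± 6.07 to 28.8 ± 8.55 and 27.5 ± 3.41, and held in 7 of 12 fits with a library left out.

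Smurf2, the ligase that pairs with Smad7 and also targets Smad2, had an intragenic interval called lower in both tables. In Ctrl (chr11:106896635-106896835) WT had 31.0, 34.9, 40.5 and 39.9, Smad2_KO1 had 17.9, 27.8, 17.8 and 26.6, and Smad2_KO2 had 28.1, 21.8, 18.1 and 23.1. In Paused (chr11:106896640-106896840) it averaged 28.4 ± 2.61 (SD, n = 4) in WT, 16.1 ± 3.61 in Smad2_KO1 and 18.2 ± 1.44 in Smad2_KO2. The KO libraries were below WT in both tables. The Ctrl log2 changes were -0.70 ± 0.21 and -0.67 ± 0.21 (limma adjusted p = 0.0202 and 0.0276), held in 6 of 12 fits with a library left out. In Paused they were -0.80 ± 0.23 and -0.61 ± 0.23 (limma adjusted p = 0.0103 and 0.0492), and no such fit kept the call, the limma adjusted p running from 0.0520 to 0.103. A weak interval near the window limit (chr11:106940641-106940841, 19894 bases outside the gene) fell in Paused from 21.3 ± 8.48 to 10.3 ± 3.56 and 6.11 ± 1.38, with 6 of 12 such fits keeping the call. The start interval of Smurf2, which overlaps the printed stretch, averaged 243 ± 26.7 in WT, 217 ± 19.4 in Smad2_KO1 and 205 ± 17.0 in Smad2_KO2 in Ctrl, with changes of -0.16 and -0.24 that did not pass.

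Across the 10 genes the start intervals, or the strongest intervals in their place, were open in every line. The strongest was taken where no start is listed, and at Smad6, where no interval lay within 1 kb of the listed start. Because all member intervals have the same width of 201 bases, their WT levels can be ordered. In Ctrl the order ran from Bambi (400), Smad6 (398) and Skil (388) through Smad7 (356), Tgif1 (355), Tgif2 (354) and Ski (345) to Smurf1 (277), Pmepa1 (245) and Smurf2 (243), and the WT ranges of all 9 neighbouring pairs overlapped. In Paused it ran from Smad6 (521), Ski (508), Smad7 (493), Bambi (482), Tgif2 (457), Skil (441) and Smurf1 (394) to Smurf2 (312), Pmepa1 (278) and Tgif1 (188), and 8 of 9 pairs overlapped; Tgif1 stood apart below Pmepa1. The Tgif1 interval ranked in Paused (chr17:70850932-70851132) is not the one ranked in Ctrl (chr17:70851134-70851334), which has no match in Paused, so its places in the 2 orders cannot be compared. None of these 10 intervals was called in Ctrl and 1 was in Paused, that of Ski. Their mean change was below 0 at 10 of 10 genes in Ctrl and 9 of 10 in Paused, and single-line changes ran from -0.24 to 0.03 and from -0.40 to 0.24. A change below 0 is usual at such levels. Over all tested intervals of the highest level decile the median change was -0.07 in Ctrl and -0.14 in Paused. WT replicates 1 and 4 were both above WT replicates 2 and 3 at 8 of 10 of these intervals in each table, as at the start of Ski; the part of this in the results was not tested.

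Seen through the summed signal over each window, 3 brakes were lower in the knockout lines in Ctrl: Smad7, Skil and Ski. For Smad7 the sums were 1631, 1593, 1670 and 1675 in WT, 1375, 1297, 1525 and 1427 in Smad2_KO1, and 1324, 1473, 1329 and 1396 in Smad2_KO2, with changes of -0.23 ± 0.05 and -0.25 ± 0.05 (limma adjusted p = 0.00301 and 0.000967). For Skil the KO sums ran from 809.5 to 896 below WT sums of 939 to 1079, with changes of -0.24 and -0.23 (limma adjusted p = 0.00398 and 0.00598). For Ski they ran from 1316 to 1758 against 1803 to 2112 in WT, with -0.29 and -0.24 (limma adjusted p = 0.000683 and 0.00569). In none of these genes did the KO libraries overlap WT. Of 20233 gene sums in Ctrl, 8.14% were called in both knockout lines, 3.19% higher and 4.95% lower. With a window of 5 kb the call held for Ski alone.

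In Paused the sums of Smad7 and Ski were called. For Ski the WT sums were 3030, 2481, 2763 and 2919, those of Smad2_KO1 were 2257, 2088, 2246 and 2297, and those of Smad2_KO2 were 2178, 2136, 2220 and 2345, below WT throughout. The changes were -0.33 ± 0.05 in each knockout line (limma adjusted p = 1.25e-06 and 1.18e-06). Smad7 had -0.19 ± 0.05 and -0.18 ± 0.05 (limma adjusted p = 0.00163 and 0.00233). Skil passed in Smad2_KO1 alone (-0.14, limma adjusted p = 0.0407, against -0.12 and 0.0777 in Smad2_KO2) and Tgif2 in Smad2_KO2 alone (-0.14, limma adjusted p = 0.0304, against -0.12 and 0.0658). Over all genes with a sum, 27.3% of 20093 were called in Paused, 6.46% higher and 20.8% lower, so 2 of 10 is no more than the background. Scaling decides how many pass here: 7 genes did under DESeq2 size factors or TMM factors (Smad7, Smad6, Skil, Ski, Tgif1, Tgif2 and Smurf2), but so did 51.1% and 48.4% of all genes, while the median of all genes went from -0.05 to -0.15 under size factors. Without WT replicate 2 or WT replicate 3, 4 genes passed, beside 32.0% and 31.7% of all genes. Smurf1 was the one gene with a positive change in each knockout line in both tables, 0.08 and 0.09 in Ctrl and 0.05 and 0.06 in Paused, none past the test.

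**Figure D2:**
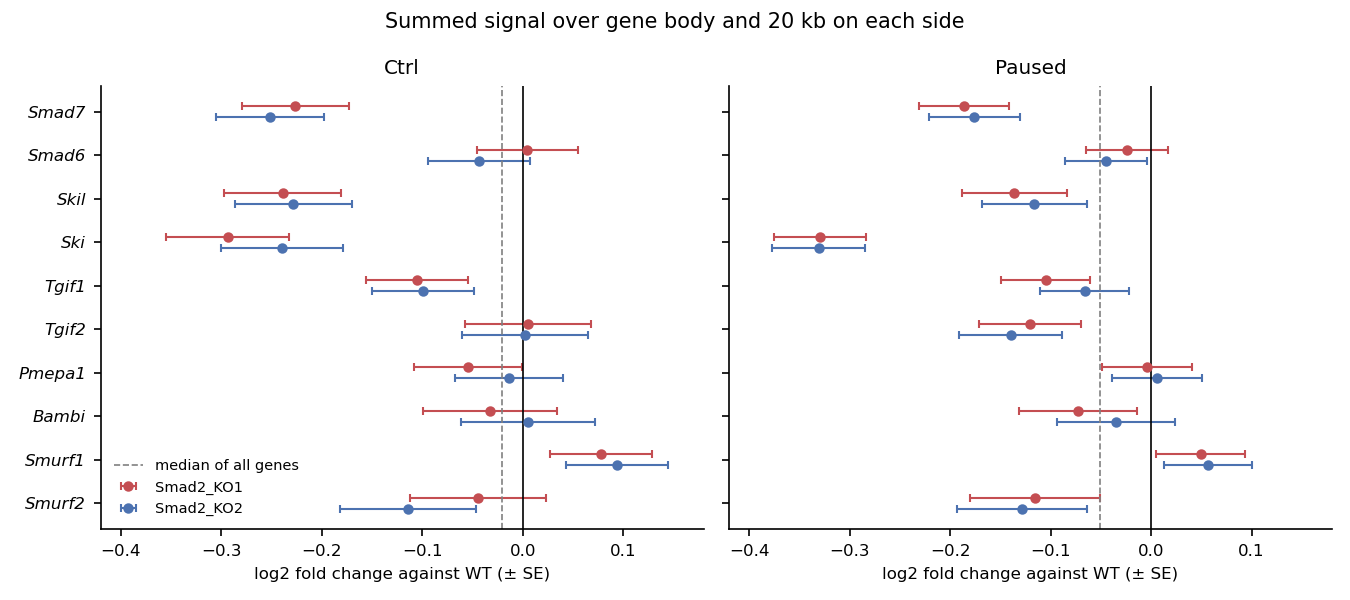
Log2 fold change of the signal summed over each gene body and 20 kb on each side (x axis) for Smad2_KO1 (red) and Smad2_KO2 (blue) against WT, with bars for the SE and a dashed line at the median of all genes, for Ctrl (left) and Paused (right). Smad7, Skil and Ski lie between -0.23 and -0.29 in Ctrl, and Ski lies at -0.33 in both knockout lines in Paused.

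Part of the calls were shared between the treatments, in shares near those of all intervals. Of the member intervals, 189 matched one to one between the tables, and 187 of them were tested in both. The sign of the change was the same at 163 of the 187, beside 77.9% of all matched intervals. Called in both tables with the same sign were 8 intervals, which is 61.5% of the 13 Ctrl calls and 32% of the 25 Paused calls; over all intervals these shares were 50.8% and 28.2%. None was called with opposite signs. The 8 were 3 at Ski, 2 at Smad7, 2 at Smurf1 and 1 at Smurf2, of which 7 were lower and 1, at Smurf1, was higher. The 2 tables share no library, and 4 of the 13 Ctrl calls had a matched interval that was tested but not called in Paused.

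**Figure D3:**
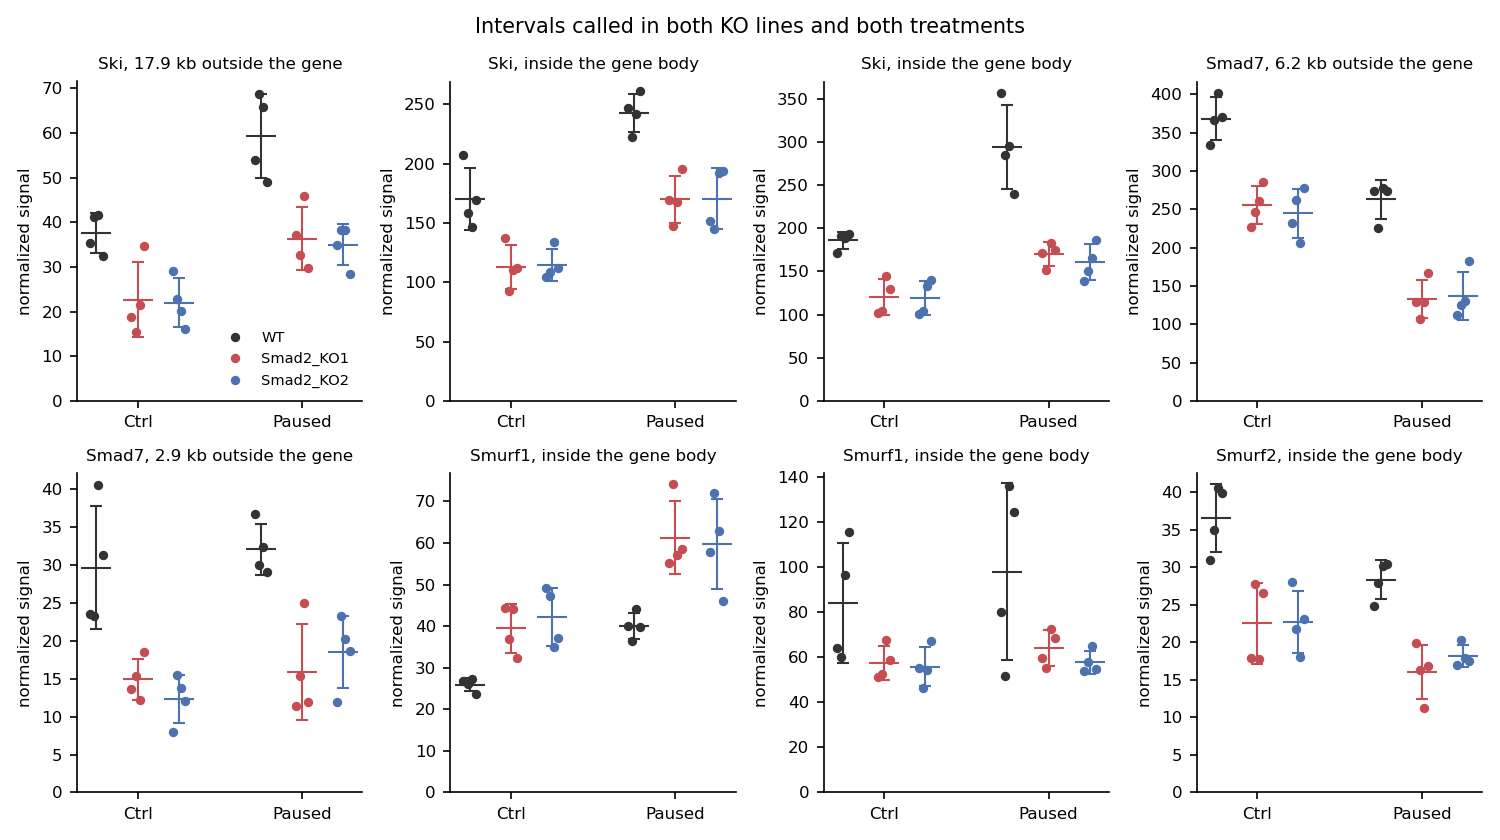
Normalized signal of each library (points), with mean and SD (bars), at the 8 intervals called in both knockout lines and both treatments, for WT (black), Smad2_KO1 (red) and Smad2_KO2 (blue); levels of Ctrl and Paused were scaled separately. At the Smad7 element 6.2 kb outside the gene every KO library lies below every WT library in both treatments, while at 1 Smurf1 interval the WT libraries are spread from 60.0 to 115 in Ctrl.

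**Figure D4:**
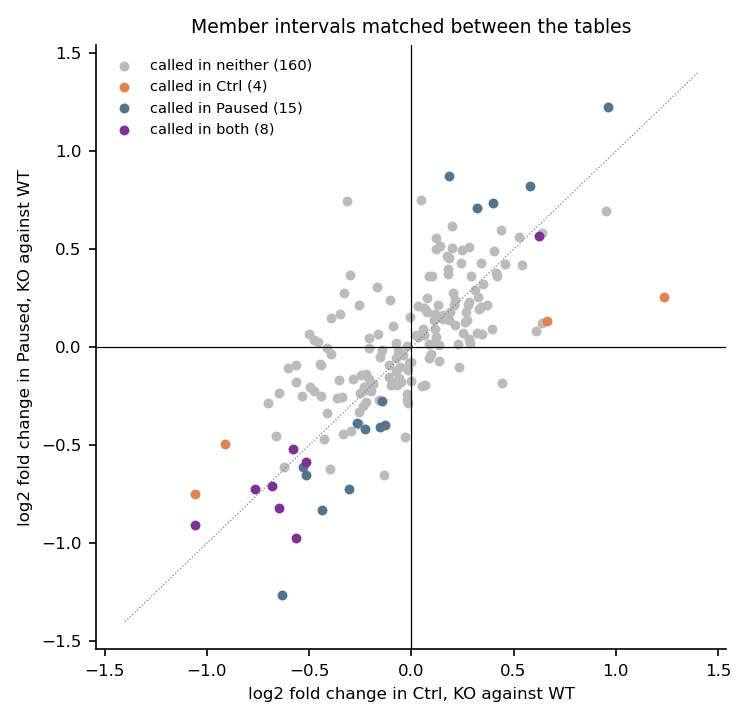
Log2 fold change (mean of the knockout lines against WT) in Ctrl (x axis) and Paused (y axis) of the 187 matched member intervals, coloured by call, with the dotted line marking equal change. The 8 intervals called in both tables comprise 7 lower and 1 higher, and 160 were called in neither.

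The median change of the members was lower at higher levels. It was 0.07 in level deciles 1 to 5 and -0.06 in deciles 6 to 10 in Ctrl, and 0.14 and -0.04 in Paused. The split of calls followed level less plainly. In deciles 1 to 5, 2 calls were higher and 2 lower in Ctrl, and 2 and 5 in Paused. In deciles 6 to 10 the split was 2 and 7 in Ctrl, and 5 and 13 in Paused. The direction of all calls by decile was not computed. Among members in the top 2 level deciles of all intervals, 4 of 53 were called in Ctrl and 9 of 50 in Paused, and all of them were lower. Of all intervals, 11.1% and 8.34% were called in these 2 deciles in Ctrl, and 16.7% and 20.1% in Paused. Over all tested intervals the median change also fell with level, from 0.23 in the lowest decile to -0.07 in the highest in Ctrl and from 0.36 to -0.14 in Paused. With a loess offset along the level, which takes this trend out, 17 member intervals were called in Ctrl (2 higher, 15 lower; 6.85% beside 6.48% of all) and 24 in Paused (6 higher, 18 lower; 9.84% beside 9.62%). The large elements of Smad7 (level 289 in Ctrl) and Ski (142) lay well below the median of their decile, at -0.56 and -0.65 as the mean of the knockout lines. Inside gene bodies 5 of 143 intervals were called in Ctrl and 15 of 137 in Paused, and outside them 8 of 105 and 10 of 107. Of all tested intervals, wherever they lay, 7.15% were called in Ctrl and 13.9% in Paused. The shares of all intervals by place were not computed, so no pattern of place is read from these counts.

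**Figure D5:**
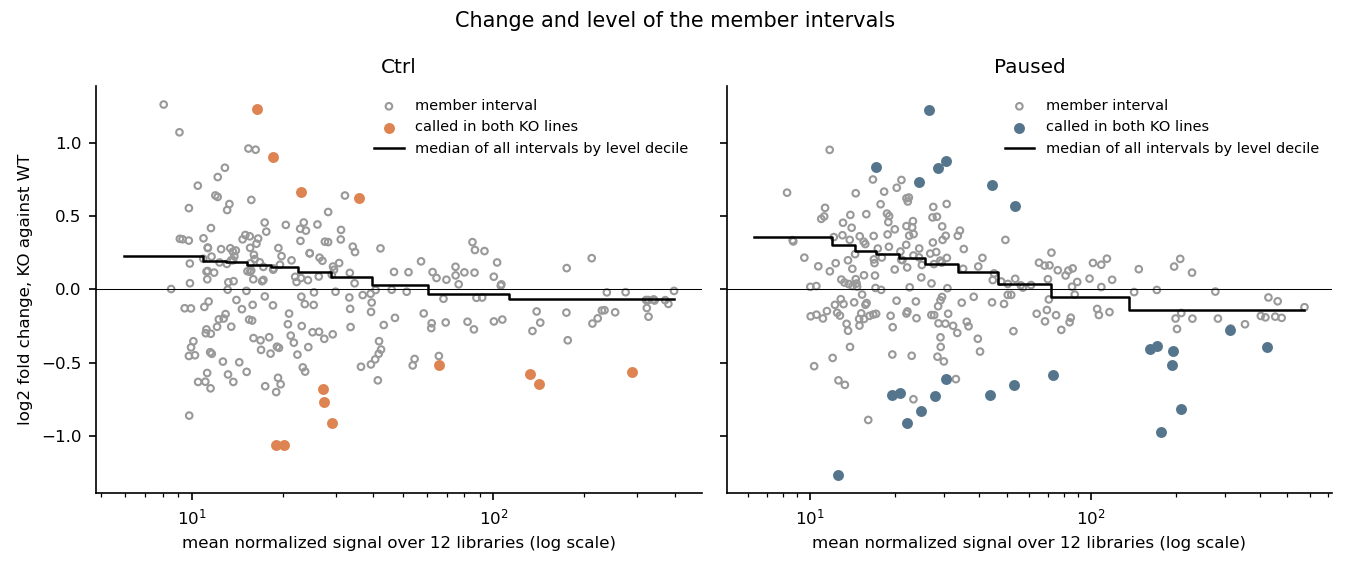
Log2 fold change (mean of the knockout lines against WT, y axis) of each tested member interval by its mean normalized signal over 12 libraries (x axis, log scale), for Ctrl (left) and Paused (right), with the median of all tested intervals per level decile as a black step. Called intervals (filled) at the highest levels are all lower, 4 in Ctrl and 9 in Paused for the top 2 deciles.

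The knockout lines did not separate from each other. No member interval was called between Smad2_KO1 and Smad2_KO2 by limma, edgeR or DESeq2. At an unadjusted p under 0.05 limma counted 7 of 248 in Ctrl and 4 of 244 in Paused, edgeR 8 and 4, and DESeq2 3 and 4. Over all tested intervals the shares in Ctrl and Paused were 3.28% and 1.97% by limma. They were 3.43% and 2.37% by edgeR, and 1.28% and 0.824% by DESeq2. The absence of a call does not show that the lines are alike.

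Other genes of the pathway give the setting of these brakes. Their lists were chosen with earlier results of these data known. Dact2, which acts inside the cell, was listed with the extracellular inhibitors Lefty1, Lefty2, Cer1 and Fst. This list had 10 of 51 tested intervals called in Ctrl, all lower (19.6%, median -0.32). It had 12 of 47 in Paused, 11 of them lower (25.5%, median -0.28). Over all tested intervals 7.15% were called in Ctrl and 13.9% in Paused. Dact2 gave 0 of 12 in Ctrl and 2 of 13 in Paused, 1 of them lower. Lefty1, which blocks Nodal outside the cell, gave 6 calls in Ctrl and 3 in Paused, and its relative Lefty2 gave 4 and 7. Ligands (10 genes with Nodal) had 7 of 141 called in Ctrl, 4 higher and 3 lower, and 14 of 139 in Paused, 8 higher and 6 lower. Receptors and co-receptors (8 genes) had 7 of 144, with 6 higher and 1 lower, and 19 of 153, with 13 higher and 6 lower. Transducers and partners (6 genes, Smad3 and Foxh1 among them) had 5 of 142 (3.52%) and 11 of 141 (7.80%). The 8 genes of the bone morphogenetic protein branch had 7 of 130 (5.38%) and 16 of 124 (12.9%). The shares for ligands (4.96% and 10.1%) and receptors (4.86% and 12.4%) stand beside 5.24% and 10.2% for the 10 intracellular and membrane brakes. Apart from the list with the extracellular inhibitors, each share was below that of all tested intervals in its table. Differences between lists were not tested.

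The interval nearest the limit of the window on each side was not called in either table. Just inside it, the Ctrl interval 19919 bases from Ski averaged 13.6 ± 6.92 (SD, n = 4) in WT, 12.2 ± 3.44 in Smad2_KO1 and 13.6 ± 3.24 in Smad2_KO2. Just outside, 20226 bases from Tgif2, the averages were 22.8 ± 2.53, 28.1 ± 4.59 and 23.9 ± 5.53. In Paused the interval 19956 bases from Ski averaged 18.8 ± 7.73, 15.6 ± 1.77 and 15.9 ± 4.42, and the one 20039 bases from Skil averaged 11.3 ± 5.19, 8.98 ± 1.03 and 14.8 ± 4.60.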

How the data were processed

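ATAC-seq libraries of 3 lines in 2 treatments were measured, 4 per group. Per the submitters' processing notes the tools were FastQC, Trim Galore, Bowtie2 2.4.1, MACS3 3.0.3 and DiffBind 3.16.0 with build mm10; their roles and settings, duplicate removal and the shift of reads for Tn5 are not given in the sources used here. The authors deposited 1 table per treatment, with different intervals and separate scaling, so Ctrl and Paused were set side by side and not tested against each other. The deposited signal is reads per interval scaled by library and rounded. Whole reads were computed for all 24 columns and are clear for 20 of them. In the others the factor is so near 1 that scaled values and whole reads are hard to tell apart. Recovered reads of all columns entered the edgeR, DESeq2, size factor, TMM and library total alternatives and the chi-square of library pairs. The authors' deposited tables also give a log2 fold change and a p-value with its false discovery rate (FDR) for all KO libraries against WT.

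Intervals were assigned to gene bodies of the RefSeq table for GRCm38.p6, extended by 20 kb. Values were analysed as log2(value + 1) with limma 3.58.1 (R 4.3.3, variance trend, all 12 libraries of a table, line as the only term), for intervals with a value of at least 10 in at least 4 libraries, with Benjamini-Hochberg adjustment over all tested intervals. Gene sums added the tested intervals of a window and were fitted the same way over all genes. The fits were tested on simulated data. Alternatives covered scaling, pseudocount, filter, window, threshold, edgeR 4.0.16, DESeq2 1.42.0, a replicate block and leaving out libraries. Intervals described singly were, per gene and table, the one nearest the annotated start within 1 kb, otherwise the strongest in the gene or within 1 kb, and up to 3 called intervals with the largest smaller change of the lines. The members, lists and tests were chosen with earlier results of these data known.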

Additional observations from a re-analysis of the deposited data

Results flagged for a closer look

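In 12 of 213 groups of 4 libraries, 1 library lay far from the other three by Dixon's criterion; chance gives about 1 in 20 groups. Among start and strongest intervals, the Tgif1 start in Ctrl had 285.8 in Smad2_KO1 replicate 2 against 347.94 to 360.4 in the others, and the Tgif2 start had 363.75 in Smad2_KO2 replicate 1 against 323.04 to 327.21. The strongest Smad7 interval in Paused had 384.54 in Smad2_KO2 replicate 1 against 444.54 to 448.52. The Smad7 element 6179 bases outside the gene had 225.41 in WT replicate 2 in Paused against 274.14 to 278.36, and this lowest WT library was still above every KO library. A weak Tgif2 interval in Ctrl had 22.75 in Smad2_KO2 replicate 2 against 19.04 to 19.12. The Smad6 interval that rose in Paused had 59.24 in Smad2_KO2 replicate 2 against 42.66 to 44.9, and without that library it was not called. The Smurf1 interval in the body of Kpna7 had 25.89 in WT replicate 3 against 12.95 to 14.57, and 32.55 in Smad2_KO2 replicate 3 against 25.16 to 26.25. Among gene sums in Ctrl, Skil had 809.52 in Smad2_KO2 replicate 3 against 890.96 to 895.84, and Tgif1 had 1557.51 in Smad2_KO1 replicate 2 against 1643.64 to 1653.35. Pmepa1 had 1911.11 in WT replicate 3 against 1815.62 to 1827.57, and Smurf1 had 1691.69 in Smad2_KO2 replicate 4 against 1549.2 to 1557.14. No interval matched between the tables had all KO libraries on opposite sides of WT in the 2 treatments.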

How the results depend on the processing

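The 13 intervals called in Ctrl became 7 with DESeq2, 39 with the KO libraries as 1 group, 30 with same-numbered KO libraries averaged, 6 without the KO libraries numbered 2, 1 with an absolute log2 change of at least 1, 7 within 5 kb and 21 within 50 kb. The 25 in Paused became 16 with DESeq2, 49 with 1 KO group, 12 without the KO libraries numbered 2 and 1 with the added fold threshold. In Ctrl the member shares with DESeq2, 1 KO group and averaging were 2.82%, 15.7% and 12.1%, beside 3.47%, 17.6% and 13.0% of all intervals. In Paused they were 6.56% with DESeq2 and 20.1% with 1 KO group, beside 7.63% and 28.7% of all. The Ctrl counts within 5 kb and 50 kb were 4.05% and 5.20% of tested, beside 7.15% of all. With the added fold threshold, 1 of 248 members stood beside 4267 of 282089 tested intervals in Ctrl. In Paused, 1 of 244 stood beside 6903 of 260539. With 1 library left out the counts ran from 8 to 18 in Ctrl (8 without Smad2_KO1 replicate 1) and from 16 to 33 in Paused (16 without Smad2_KO1 replicate 2 or WT replicate 1). The highest counts, 18 without WT replicate 2 in Ctrl and 33 without WT replicate 3 in Paused, were 7.26% and 13.5% of tested. In the same fits 7.63% and 15.0% of all intervals were called. Gene sums called in Ctrl went from 3 to 1 within 5 kb, beside 6.99% of all genes, and stayed at 3 with any library left out. Those in Paused went from 2 to 7 with size factors and 7 with TMM factors, beside 51.1% and 48.4% of all genes. A loess offset gave 4 there, beside 21.5%. Leaving out a library gave 2 to 4 in Paused, the 4 beside 32.0% and 31.7%. The sum of Tgif1 in Paused reversed to 0.20 within 5 kb (mean of the lines). The split of higher and lower intervals was 2 and 17 in Ctrl with size factors, 3 and 16 with TMM and 2 and 15 with loess. In Paused, library totals gave 10 and 15. Among the calls of all intervals, 37.4%, 39.4% and 40.4% were higher under these 3 Ctrl settings, beside 55.2% in the main fit. With library totals in Paused 71.3% were higher, beside 64.7%. The causes were not tested. Over single intervals and gene sums, 1542 values kept direction and side of the threshold, 147 lost their call, 33 gained one and 1 reversed. Same-numbered libraries deviated together weakly (mean correlation 0.027 in Ctrl, 0.052 in Paused; for Smad2_KO1 with Smad2_KO2 0.051 and 0.105, the latter from 0.034 to 0.187 against -0.035 for other numbers). Not every pair was over 0.1, so the numbers are not taken as pairs. With the replicate block 18 and 33 intervals were called (7.26% and 13.5%, beside 7.97% and 16.2% of all). Gene sums called with it were 3 and 3, beside 9.56% and 30.5% of all genes. Comparing Smad2_KO1 with Smad2_KO2 gave 0 calls under all 25 alternatives in each table. Levels near the filter of 10 limit what can be seen at weak intervals.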
